A study of Mus musculus with 12 samples.

Results

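The 6 genes described here encode STAT proteins, the signal transducers and activators of transcription, and were taken from the deposited expression table by gene name: Stat2, Stat3, Stat4, Stat5a, Stat5b and Stat6, 6 of 54532 genes. The question was what the other members did where Stat3 was removed. RNA had been sequenced from mammary glands with hyperplasia, taken from FVB/N females of 3 genotypes, which the labels call MIC Stat3 ko, MIC Chi3l1 ko and MIC WT, with 4 libraries in each. Every mouse, WT included, carried the MIC background and received doxycycline at 2 mg/ml, and the titles carry the time 2 wk. As background, the MIC transgene couples the polyoma middle T oncogene to Cre recombinase under doxycycline control in mammary epithelium, so a conditional allele is recombined there and other cells of the gland are not targeted. The labels name no allele for either knockout, give no age and no batch, and do not say whether the 4 samples per genotype are separate animals. The p-values therefore measure the spread between those samples.

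STAT proteins wait in the cytoplasm until a cytokine receptor and its Janus kinase phosphorylate them on tyrosine, after which they pair, enter the nucleus and bind DNA. In the mammary gland STAT5A, downstream of prolactin, is known for driving milk protein genes, and STAT3, downstream of LIF and the IL-6 family, for triggering involution after weaning. STAT6 answers IL-4 and IL-13, STAT4 answers IL-12 in lymphocytes, and STAT2 joins IRF9 in the response to type I and type III interferon. Messenger RNA was measured here, and phosphorylation was not.

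Stat3, Stat5a and Stat5b lie side by side on mouse chromosome 11 in GRCm38 and Stat6 and Stat2 share chromosome 10. Stat5b (ENSMUSG00000020919, chr11:100780731-100850724, minus strand) is followed after 8626 bases by Stat5a (ENSMUSG00000004043, chr11:100859351-100885169, plus strand). The 3′ end of Stat5a overlaps that of Stat3 (ENSMUSG00000004040, chr11:100885098-100939540, minus strand) by 72 bases. Strand-specific counting is not stated in the sources used here, so reads from those shared bases cannot be assigned to either gene with certainty. Stat6 (ENSMUSG00000002147, chr10:127642986-127660957, plus strand) ends 609601 bases before Stat2 (ENSMUSG00000040033, chr10:128270559-128292849, plus strand). Stat4 (ENSMUSG00000062939, chr1:51987148-52107189, plus strand) stands alone on chromosome 1.

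Promoter windows of RefSeq on GRCm38.p6, running from 250 bases before to 50 bases after each annotated start, were found for all 6 genes, 9 windows in all. They were searched on both strands for TTC and GAA 3 bases apart or 4 bases apart, spacings bound by STAT dimers, and for GAAA and GAAA 2 bases apart, the interferon response element bound by the complex of STAT2 and IRF9. Of 32851 windows in the table, 8.3% held the first, 6.95% the second and 3.44% the third. The 4 windows below are shown because Stat3 is the gene that was lost, Stat2 varied with interferon-induced genes, and Socs3 and Cish are the feedback genes through which STAT3 and STAT5 are usually read. Capitals mark the matches, and each sequence is written 5′ to 3′ on the strand of its gene.
Stat3, chr11:100939491-100939790, minus strand: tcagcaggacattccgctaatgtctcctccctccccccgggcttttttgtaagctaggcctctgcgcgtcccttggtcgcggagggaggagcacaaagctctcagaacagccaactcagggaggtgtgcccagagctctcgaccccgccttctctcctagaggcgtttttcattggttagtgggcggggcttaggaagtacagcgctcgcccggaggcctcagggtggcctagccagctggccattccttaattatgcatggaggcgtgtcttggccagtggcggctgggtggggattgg
Stat2, chr10:128270248-128270547, plus strand: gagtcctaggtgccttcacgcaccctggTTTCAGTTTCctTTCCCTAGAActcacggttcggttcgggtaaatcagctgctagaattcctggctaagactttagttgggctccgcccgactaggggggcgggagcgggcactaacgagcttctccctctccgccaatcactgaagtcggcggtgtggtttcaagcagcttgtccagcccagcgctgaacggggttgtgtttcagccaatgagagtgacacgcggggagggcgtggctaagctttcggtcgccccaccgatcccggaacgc
Socs3, chr11:117969317-117969616, minus strand: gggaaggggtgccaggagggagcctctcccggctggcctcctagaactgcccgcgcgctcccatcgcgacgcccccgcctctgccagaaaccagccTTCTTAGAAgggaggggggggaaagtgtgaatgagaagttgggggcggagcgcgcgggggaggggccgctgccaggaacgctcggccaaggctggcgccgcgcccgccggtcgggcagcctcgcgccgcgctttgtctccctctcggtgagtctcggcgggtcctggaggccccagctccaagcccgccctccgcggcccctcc
Cish, chr9:107296409-107296708, plus strand: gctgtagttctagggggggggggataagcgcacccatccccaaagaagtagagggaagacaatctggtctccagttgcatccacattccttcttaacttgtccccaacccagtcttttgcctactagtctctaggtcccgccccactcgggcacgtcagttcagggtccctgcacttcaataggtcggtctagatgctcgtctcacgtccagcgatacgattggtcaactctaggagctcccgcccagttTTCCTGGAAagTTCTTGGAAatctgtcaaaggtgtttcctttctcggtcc

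The Stat2 window holds the interferon element on its minus strand, read as TTTCAGTTTC, beginning at position -222 from the start, and TTCCCTAGAA beginning at -210, with no base shared between them. Socs3 holds TTCTTAGAA beginning at -154, and Cish holds TTCCTGGAA and TTCTTGGAA around its start. One of the Stat4 windows (chr1:52007990-52008289, plus strand) holds GAAAGTGAAA beginning at -97. The windows of Stat3, Stat5a, Stat5b and Stat6 hold none of these letters. A match describes the letters in the window, not a bound site.

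The libraries held 16217143 to 22607123 gene counts. Expression is given as FPKM, a fragment count divided by gene length and library depth, in order of library 1 to 4 of a group. The test is limma on log2(FPKM + 1) over the 13643 genes that reached 1 FPKM in 4 or more libraries, adjusted by Benjamini-Hochberg over all of them, and a difference is called at an adjusted p under 0.05. Chi3l1, listed under its mouse symbol Chil1, had 823, 249, 638 and 720 counts in Stat3 ko, 1, 2, 0 and 0 counts in Chi3l1 ko, and 5734 to 13318 counts in WT, which fits the Chi3l1 ko label. The Stat3 ko glands differed from each other in makeup. Adipocyte markers summed to 7588, 1082, 1054 and 839 FPKM in Stat3 ko, against 191 to 1003 FPKM in Chi3l1 ko and 107 to 467 FPKM in WT, and T cell markers to 41.3, 234, 137 and 24.9 FPKM in Stat3 ko, against 17.6 to 32.1 FPKM in Chi3l1 ko and 15.2 to 31.3 FPKM in WT. Luminal epithelial markers summed to 1148, 1299, 2503 and 2774 FPKM in Stat3 ko, against 2061 to 2780 FPKM in Chi3l1 ko and 2253 to 3231 FPKM in WT, so the labelled mammary epithelium was present in every library. Mitochondrially encoded genes took 4.79%, 3.37%, 1.88% and 1.2% of counts in Stat3 ko, against 1.03% to 2.23% in Chi3l1 ko and 1.0% to 1.51% in WT. In such bulk tissue fewer cells of a type and less RNA per cell cannot be told apart.

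Stat3 fell in the Stat3 ko glands and was the only one of the 5 members tested that did. It stood at 18.7, 17.8, 14.3 and 12.2 FPKM in Stat3 ko, at 49.9, 46.7, 53.3 and 50.1 FPKM in Chi3l1 ko, and at 49.6, 49.7, 46.2 and 46.4 FPKM in WT. Every Stat3 ko library lay below every library of the other 2 groups, and Chi3l1 ko and WT overlapped. The Stat3 ko mean of 15.8 ± 3.04 FPKM was 32.9% of the WT mean of 48.0 ± 1.93 FPKM (SD, n = 4 each). The difference in log2(FPKM + 1) was -1.56 ± 0.12 (SE, adjusted p = 5.59e-05, limma, 95% interval -1.82 to -1.30) for Stat3 ko over WT, and -1.62 ± 0.12 (adjusted p = 5.55e-05, limma) for Stat3 ko over Chi3l1 ko. The authors' deposited table lists Stat3 at a log2 fold change of -1.62 for Stat3 ko over WT, with an adjusted p of 6.65e-17. Between the 4 Stat3 ko glands, the remaining Stat3 was highest in libraries 1 and 2, the pair with the lowest luminal marker sums and the highest mitochondrial shares, and lowest in library 4, with the highest luminal sum. With the luminal marker level as a covariate the difference from WT was -1.80. That level also ran lower in Stat3 ko, so this fit cannot tell luminal content and genotype apart. Without the libraries over 2% mitochondrial counts, which leaves only libraries 3 and 4 of Stat3 ko, the difference was -1.78.

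**Figure D1:**
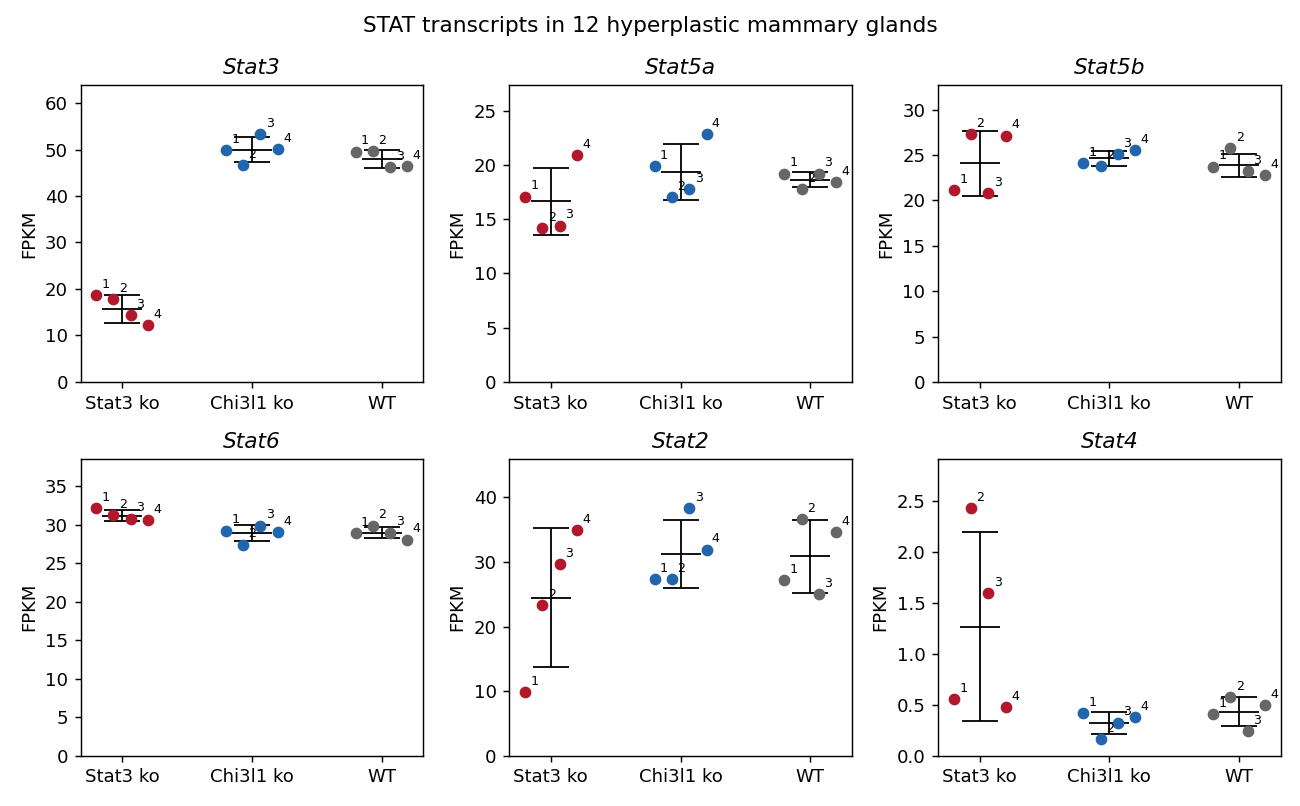
Each panel plots FPKM of a STAT gene in the 12 libraries, with Stat3 ko, Chi3l1 ko and WT from left to right, points numbered by library, and bars for the mean and SD of 4. Stat3 separates Stat3 ko from both other groups, Stat6 spans only 27.4 to 32.2 FPKM, and the spread of Stat2 and Stat4 is widest in Stat3 ko.

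Across all genes limma called 14.0% between Stat3 ko and WT (5.61% higher, 8.39% lower in Stat3 ko), 13.2% between Stat3 ko and Chi3l1 ko and 0.00733% between Chi3l1 ko and WT. Of the 6 STAT genes 5 passed the filter on low values, and 1 of these 5 was called in each comparison with Stat3 ko. That was Stat3 itself. In Chi3l1 ko over WT limma called 0 of 5 members, with 0 at an unadjusted p under 0.05, and edgeR and DESeq2, which called 0.00608% and 0.0357% of all genes, called 0 of 6. The 3 comparisons share libraries, so their values are not independent.

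Stat5a and Stat5b, the neighbours of Stat3 and close paralogues of each other, did not pass the test in any comparison. Stat5a had 17.1, 14.2, 14.4 and 20.9 FPKM in Stat3 ko, 19.9, 17.1, 17.8 and 22.8 FPKM in Chi3l1 ko, and 19.2, 17.8, 19.2 and 18.5 FPKM in WT. Stat3 ko libraries 1 to 3 lay below all WT libraries and library 4 above them all, so the groups overlapped. The difference in log2(FPKM + 1) was -0.17 ± 0.13 for Stat3 ko over WT (SE, adjusted p = 0.351, limma), and its 95% interval of 0.73 to 1.07 times WT, on that scale, reaches further below WT than above it. Against Chi3l1 ko it was -0.22 ± 0.13 (adjusted p = 0.259, limma).

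Stat5b, the form more tied to growth hormone signalling in liver, had 21.2, 27.3, 20.8 and 27.1 FPKM in Stat3 ko, 24.1, 23.8, 25.1 and 25.6 FPKM in Chi3l1 ko, and 23.7, 25.7, 23.2 and 22.8 FPKM in WT. The Stat3 ko libraries were split, with libraries 2 and 4 above every WT library and 1 and 3 below every one. Their mean of 24.1 ± 3.59 FPKM stood beside 23.9 ± 1.30 FPKM in WT, and the difference in log2(FPKM + 1) was 0.00 ± 0.10 (adjusted p = 0.982, limma, 95% interval -0.21 to 0.22). The ratio of Stat5a to Stat5b was 0.808, 0.519, 0.693 and 0.770 in Stat3 ko, against 0.709 to 0.893 in Chi3l1 ko and 0.691 to 0.83 in WT. Stat3 ko library 2 lay alone below the others, and the ratio differed from WT by -0.19 ± 0.16 on the log2 scale (exact two-sided permutation test, p = 0.229, 0.471 adjusted over 3 comparisons). How the authors' counting treated reads from the paralogues' alike stretches is not stated in the sources used here, so each level is uncertain to that extent.

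Stat6, the transducer of IL-4 and IL-13, was the steadiest of the 6 genes. It had 32.2, 31.3, 30.8 and 30.6 FPKM in Stat3 ko, 29.3, 27.4, 29.9 and 29.0 FPKM in Chi3l1 ko, and 29.0, 29.9, 29.0 and 28.1 FPKM in WT. Every Stat3 ko library lay above every library of the other 2 groups, by a small margin. The Stat3 ko mean of 31.2 ± 0.696 FPKM was 1.08 times the WT mean of 29.0 ± 0.744 FPKM, and the difference in log2(FPKM + 1) was 0.10 ± 0.06 (SE, adjusted p = 0.249, limma, 95% interval -0.03 to 0.24). An exact permutation test of the 4 against 4 values gave 0.0286, the smallest p it can give. After adjustment over the 18 member tests it was 0.103. Stat3 itself got the same 0.103, so the adjusted exact test cannot decide for Stat6. Of all genes tested, 9.67% lay higher and 11.6% lower in Stat3 ko without overlap with WT, and 6.85% higher and 10.2% lower without overlap with Chi3l1 ko.

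**Figure D2:**
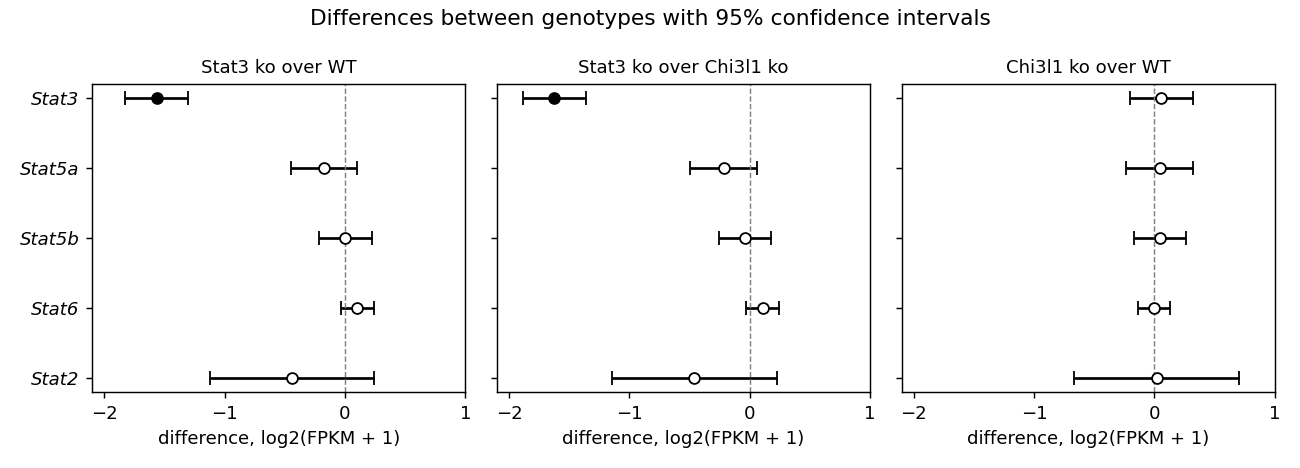
Each panel gives the difference in log2(FPKM + 1) of the 5 tested members in a comparison, with 95% intervals from limma and filled points for an adjusted p under 0.05. Only Stat3, at -1.56 and -1.62, is filled, and the interval of Stat2 is the widest of the 5.

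Stat2, the interferon transducer, varied more between the Stat3 ko libraries than between genotypes. It had 9.89, 23.4, 29.6 and 34.9 FPKM in Stat3 ko, 27.3, 27.4, 38.3 and 31.9 FPKM in Chi3l1 ko, and 27.2, 36.6, 25.1 and 34.6 FPKM in WT. Library 1 of Stat3 ko lay far below all others, and libraries 3 and 4 lay within the WT range. The difference from WT in log2(FPKM + 1) was -0.44 ± 0.31 (SE, adjusted p = 0.338, limma, 95% interval -1.12 to 0.25), and -0.07 without Stat3 ko library 1. Without the libraries over 2% mitochondrial counts, which leaves only libraries 3 and 4 of Stat3 ko, it was 0.07, so no direction can be given.

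The interferon-induced genes on the STAT2 list were low in the same library. Isg15, a ubiquitin-like protein, had 17.5, 111, 173 and 221 FPKM in Stat3 ko, 148, 136, 207 and 128 FPKM in Chi3l1 ko, and 150, 254, 129 and 280 FPKM in WT. Bst2, which tethers budding viruses to the cell surface, had 120, 304, 394 and 582 FPKM in Stat3 ko, 318, 335, 429 and 253 FPKM in Chi3l1 ko, and 304, 531, 250 and 476 FPKM in WT. Irf9, the DNA-binding partner of STAT2, had 10.6, 17.7, 21.9 and 26.2 FPKM in Stat3 ko, 24.3, 22.3, 30.5 and 27.2 FPKM in Chi3l1 ko, and 26.6, 27.7, 25.8 and 28.2 FPKM in WT. Stat3 ko library 1 was the lowest of the 12 for each of these 3 genes. Of the 14 listed targets limma called 0 for Stat3 ko over WT, with 3 at an unadjusted p under 0.05, 13 negative and a median difference of -0.91, against -0.02 over all genes. Without Stat3 ko library 1 the median was -0.26 with 9 of 14 negative, and without Stat3 ko library 4 it was -1.22 with 3 called lower. Irf9 did not pass either (-0.55 ± 0.21, adjusted p = 0.0995, limma).

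**Figure D3:**
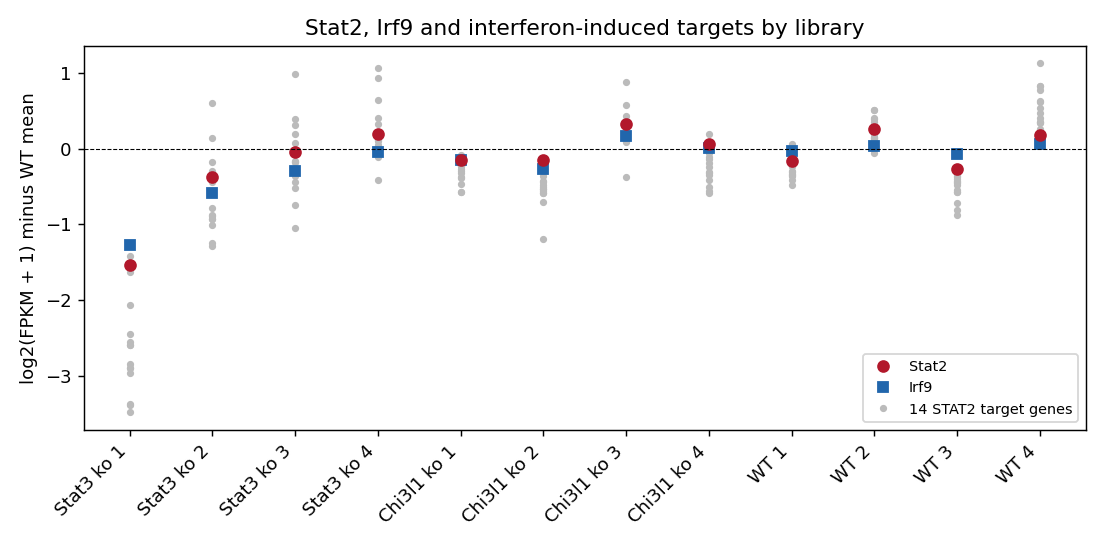
The vertical axis gives log2(FPKM + 1) minus the WT mean for Stat2, its partner Irf9 and 14 interferon-induced target genes, with Stat3 ko, Chi3l1 ko and WT libraries from left to right. All 3 kinds of point are lowest in Stat3 ko library 1, where Stat2 had 9.89 FPKM.

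Of 3 receptor chains for this branch and Irf9, limma called 1. Ifnar2, a chain of the type I interferon receptor, differed by 0.07 ± 0.11 in log2(FPKM + 1) for Stat3 ko over WT (adjusted p = 0.685, limma). Ifnlr1, the specific chain of the type III interferon receptor, fell by 0.79 on that scale (SE 0.18, adjusted p = 0.0198, limma), and missed the threshold without WT library 1 (0.0660) or WT library 3 (0.0544). It had 1.43, 1.96, 2.01 and 3.54 FPKM in Stat3 ko, 3.07, 2.61, 3.43 and 3.51 FPKM in Chi3l1 ko, and 4.88, 4.82, 4.87 and 3.31 FPKM in WT. Library 4 of each of Stat3 ko and WT crossed over, so those groups overlapped.

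Stat4, the IL-12 transducer of T and NK cells, was the least abundant member and reached 1 FPKM in 2 of 12 libraries, so it was outside the limma test. It had 0.558, 2.43, 1.60 and 0.478 FPKM in Stat3 ko, from 36, 170, 130 and 35 counts. In Chi3l1 ko it had 0.415, 0.164, 0.324 and 0.376 FPKM, from 40, 14, 25 and 26 counts, and in WT 0.405, 0.577, 0.245 and 0.499 FPKM, from 28, 50, 18 and 37 counts. Against WT only libraries 2 and 3 of Stat3 ko stood clear, and the other 2 overlapped, while all 4 lay above every Chi3l1 ko library. The Stat3 ko mean of 1.27 ± 0.929 FPKM was 2.93 times the WT mean of 0.432 ± 0.143 FPKM (exact two-sided permutation test, p = 0.143). It was 3.96 times the Chi3l1 ko mean of 0.320 ± 0.111 FPKM (the same exact test, p = 0.0286, the smallest it can give, and 0.103 adjusted over the 18 member tests). Stat3 also got 0.103, so the adjusted exact test cannot decide for Stat4 either.

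The count tests disagreed about Stat4. For Stat3 ko over WT the log2 fold change was 1.54 by both tools, with an adjusted p of 0.0605 by edgeR, where 18.0% of all genes were called, and of 0.0201 by DESeq2, where 21.7% were called. The authors' deposited table lists it at a log2 fold change of 1.53 and an adjusted p of 0.0408. Without Stat3 ko library 2 the edgeR value was 1.01 (adjusted p = 0.181), and without Stat3 ko library 4 it was 1.81 (0.0224). For Stat3 ko over Chi3l1 ko, where edgeR called 15.1% and DESeq2 20.0% of all genes, both gave 1.97 (adjusted p = 0.0319 by edgeR and 0.0024 by DESeq2), and the edgeR call was lost without Stat3 ko library 2 (1.44, 0.0828), Stat3 ko library 3 (1.84, 0.0516) or any of the 4 Chi3l1 ko libraries (1.75 to 2.12, 0.0525 to 0.0827).

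The libraries high in Stat4 were those high in lymphocyte markers. T cell markers, 8 of 8 of them tested and none at 0 in every library, summed to 234 and 137 FPKM in Stat3 ko libraries 2 and 3, against 41.3 and 24.9 FPKM in Stat3 ko libraries 1 and 4. B cell markers summed to 603 and 252 FPKM in Stat3 ko libraries 2 and 3, against 52.9 and 30.8 FPKM in libraries 1 and 4. The 4 NK cell markers ran otherwise, at 16.9, 11.7, 9.86 and 7.37 FPKM in libraries 1 to 4. With the T cell marker level as a covariate the edgeR difference of Stat4 was -0.14 for Stat3 ko over WT (adjusted p = 0.866) and 0.37 for Stat3 ko over Chi3l1 ko (adjusted p = 0.649). The T cell markers themselves went with genotype. For Stat3 ko over WT 8 of 8 differences were positive and 3 were called by limma, beside 5.61% of all genes called higher. Such a fit therefore cannot tell T cell content and genotype apart, and the cause was not tested.

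**Figure D4:**
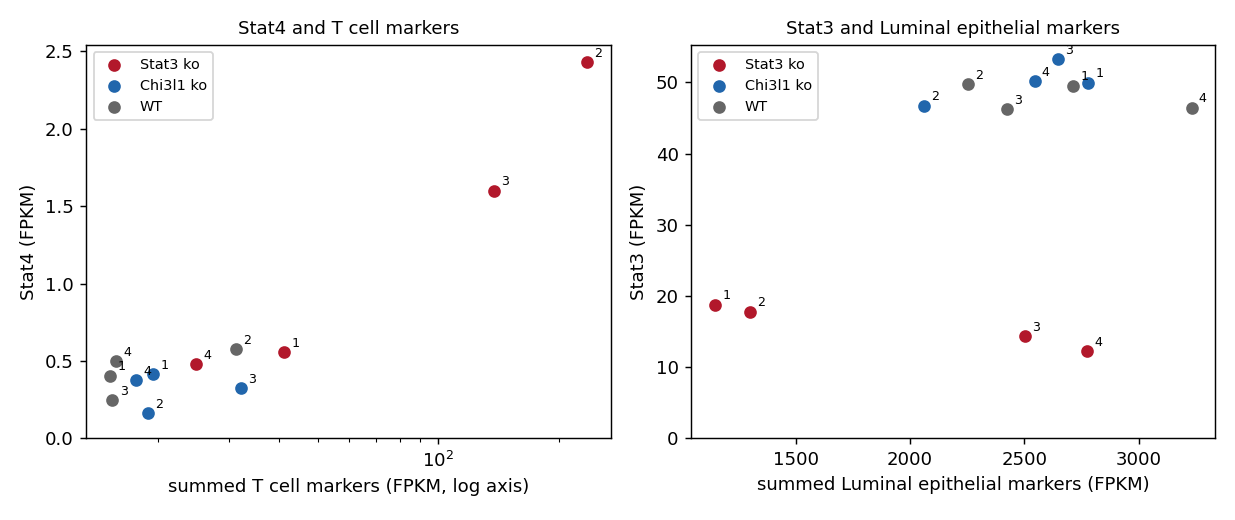
The left panel plots Stat4 against the summed T cell markers on a log axis, and the right panel Stat3 against the summed luminal epithelial markers, both in FPKM, with points numbered by library and coloured by genotype. Stat3 ko libraries 2 and 3 stand apart on the left at 2.43 and 1.60 FPKM of Stat4, and all 4 Stat3 ko libraries lie below 20 FPKM of Stat3 on the right.

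The other 5 members together were no higher on average in Stat3 ko than in the other groups. They summed to 80.9, 98.5, 97.3 and 114 FPKM in Stat3 ko, against 95.8 to 111 FPKM in Chi3l1 ko and 96.7 to 111 FPKM in WT. The Stat3 ko libraries lay below, within and above the WT range, with means of 97.7 ± 13.5 FPKM in Stat3 ko, 104 ± 7.38 FPKM in Chi3l1 ko and 103 ± 6.10 FPKM in WT. With Stat3 included the 6 genes summed to 113 ± 11 FPKM in Stat3 ko, 154 ± 9.81 FPKM in Chi3l1 ko and 151 ± 7.22 FPKM in WT. Stat3 made up 14.2% ± 3.87 of that sum in Stat3 ko, 32.4% ± 0.752 in Chi3l1 ko and 31.8% ± 1.16 in WT.

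The order of the levels changed with it. In Stat3 ko the order was Stat6, Stat2, Stat5b, Stat5a, Stat3 and Stat4, and each of the first 4 overlapped with the next in its range over libraries. Stat3 stayed clear of Stat4. In Chi3l1 ko and in WT Stat3 led, followed by Stat2 and Stat6, whose ranges overlapped, and then by Stat5b, Stat5a and Stat4, each clear of the one before.

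By the correlation of log2(FPKM + 1) over the 12 libraries after each group mean was subtracted, the genes most like Stat2 were Zbp1 (0.992), Apol9a (0.988) and Trim30a (0.987). Those most like Stat4 were Pxk and Sh2d2a (0.981 each) and Rcbtb1 (0.979), for Stat5a they were D3Ertd254e (0.936), Rprd1a (0.931) and Nbr1 (0.923), and for Stat5b Tmem117 (0.930), Pick1 (0.916) and Zfp787 (0.896). For Stat3 they were Atg16l1 (0.959), Tspyl2 (0.951) and Atp10d (0.940), and for Stat6 Zfp623 (0.947), Plxdc1 (0.890) and Tmem35b (0.852). These values describe how libraries of 1 group vary together, share the makeup of each gland, and lean on the Stat3 ko group, which varied most.

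Around Stat3, 65 genes lay within 500 kb and 33 were tested. Of these 4 were called for Stat3 ko over WT, 1 higher and 3 lower, or 12.1%, against 14.0% of all genes. Psmc3ip, a meiotic recombination factor, had 1.45, 2.31, 3.04 and 2.88 FPKM in Stat3 ko, against 5.18 to 8.38 FPKM in Chi3l1 ko and 5.88 to 6.70 FPKM in WT. Its Stat3 ko libraries lay below all others. It fell by 1.11 in log2(FPKM + 1) (SE 0.17, adjusted p = 0.0027, limma), and it was called without each library in turn. Ezh1, a histone methyltransferase, rose by 0.65 (adjusted p = 0.0275), while Jup, a junction protein of desmosomes, fell by 0.69 (0.0426) and Mlx, a partner of sugar-sensing transcription factors, fell by 0.31 (0.0443), all by limma. Each of these 3 calls was lost without WT library 1 (0.0785 for Ezh1, 0.115 for Jup, 0.107 for Mlx) and without 3 or more other libraries. The nearest tested genes on either side of the STAT block did not pass, with Ghdc at -0.27 ± 0.12 (adjusted p = 0.137, limma) and Cavin1, a caveolar coat protein abundant in adipocytes, at 1.45 ± 0.63 (0.131). Cavin1 had 297, 40.7, 34.4 and 33.9 FPKM in Stat3 ko, against 16.8 to 55.9 FPKM in Chi3l1 ko and 19.7 to 27.0 FPKM in WT. Its highest library was also the one with the highest adipocyte sum.

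The genes that signal to and from the STATs were grouped in 15 lists, from cytokine to target, with 121 genes of which 99 were tested. For Stat3 ko over WT 15 of them rose and 17 fell, or 32.3% against 14.0% of all genes. Because the lists were chosen with earlier results of these data known, the gap between these shares is no test of the lists. The same holds for each list and marker count below, beside 5.61% of all genes called higher and 8.39% called lower. For Chi3l1 ko over WT limma called 0 of the 99, with 4 at an unadjusted p under 0.05, and edgeR and DESeq2 called 0 as well. The count for Stat3 ko over WT dropped to 14 without WT library 1, 17 without WT library 4 and 20 without WT library 3.

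Cytokines themselves were mostly too low to test, with 6 of 20 tested. Il15, which sustains NK and memory T cells, rose, with 3.29, 5.17, 4.49 and 5.20 FPKM in Stat3 ko, 2.60, 2.80, 2.59 and 2.70 FPKM in Chi3l1 ko, and 3.24, 3.22, 2.28 and 2.75 FPKM in WT. Il15 in Stat3 ko did not overlap with either other group, and the difference in log2(FPKM + 1) from WT was 0.51 ± 0.13 (adjusted p = 0.0275, limma). It missed the threshold without Stat3 ko library 2 (0.0670) or WT library 1 (0.0555), 3 (0.0721) or 4 (0.0719). Ctf1, cardiotrophin of the IL-6 family and the most abundant of the list in WT, did not pass (-0.23 ± 0.14, adjusted p = 0.258, limma). Il12b, a subunit of IL-12 and IL-23, was higher in Stat3 ko than in Chi3l1 ko by 0.48 (adjusted p = 0.0340, limma), a call lost without any of 7 libraries, and differed from WT by 0.23 (0.225).

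Receptors that feed STAT3 rose in 4 and fell in 1 of 9 tested, beside 5.61% and 8.39% of all genes, with a median of 0.51. Osmr, the oncostatin M receptor and itself a STAT3 target, had 4.80, 2.72, 2.67 and 2.95 FPKM in Stat3 ko, 9.22, 10.2, 11.9 and 13.0 FPKM in Chi3l1 ko, and 10.1, 9.43, 9.59 and 9.71 FPKM in WT. All Stat3 ko libraries lay below all others, and it fell by 1.35 in log2(FPKM + 1) from WT (SE 0.15, adjusted p = 0.000316, limma). Il6ra, the IL-6 binding chain, moved the other way, with 7.41, 9.73, 6.74 and 5.21 FPKM in Stat3 ko, 4.08, 3.64, 3.72 and 4.01 FPKM in Chi3l1 ko, and 4.02, 4.51, 4.11 and 3.85 FPKM in WT (0.67 ± 0.14, adjusted p = 0.0131, limma). The Stat3 ko libraries lay above all others for Il6ra, and the calls of Osmr and Il6ra both held without each library in turn. Il6st, the shared gp130 chain, rose by 0.84 (SE 0.18, adjusted p = 0.0158, limma), with 31.6, 24.6, 19.9 and 15.2 FPKM in Stat3 ko against 11.5 to 12.6 FPKM in WT, and missed the threshold without WT library 1 (0.0534). Il10ra, a chain of the IL-10 receptor found on leukocytes, rose by 0.90 (adjusted p = 0.0187, limma) and missed it without WT library 1 (0.0653) or 4 (0.0594). Il11ra1, the IL-11 binding chain, had 13.1 to 17.0 FPKM in Stat3 ko against 7.95 to 11.8 FPKM in WT (0.51 ± 0.14, adjusted p = 0.0371, limma), and the call was lost without any of 5 libraries, WT library 1 (0.113) among them.

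Receptors that feed STAT5 rose in 4 and fell in 0 of 9 tested, beside 5.61% and 8.39% of all genes. The 4 listed genes that rose encode chains of leukocyte receptors. Csf2rb, the shared chain of the GM-CSF, IL-3 and IL-5 receptors, had 8.99, 13.4, 10.6 and 7.91 FPKM in Stat3 ko, 3.90, 5.59, 4.63 and 4.53 FPKM in Chi3l1 ko, and 3.71, 6.0, 4.44 and 4.10 FPKM in WT. Stat3 ko did not overlap with either group (1.01 ± 0.17 over WT, adjusted p = 0.0049, limma), also called without each library in turn. Il2rg, the shared chain of the IL-2 family, had 8.14, 39.8, 25.2 and 8.76 FPKM in Stat3 ko against 4.34 to 7.98 FPKM in WT (1.49 ± 0.42, adjusted p = 0.0396, limma). Libraries 2 and 3 were the highest, the pair with the highest T cell sums. This call, like those of Il2rb (0.98, 0.0496) and Il3ra (0.57, 0.0362), was lost without any of 7 or more libraries, WT library 1 (0.110, 0.131 and 0.106) and Stat3 ko library 2 (0.0773, 0.121 and 0.0873) among them. Prlr, the prolactin receptor of the mammary epithelium, did not pass, at -0.17 ± 0.35 (adjusted p = 0.753, limma), with 13.4, 2.04, 6.01 and 5.81 FPKM in Stat3 ko against 5.88 to 7.24 FPKM in WT. Csf2ra, the GM-CSF binding chain, did not pass either (0.09 ± 0.17, adjusted p = 0.735, limma).

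The receptors of STAT6 moved in opposite directions. Il13ra1, the IL-13 binding chain of the receptor on non-lymphoid cells, had 12.9, 7.53, 10.4 and 10.3 FPKM in Stat3 ko, 20.4, 20.0, 21.4 and 20.1 FPKM in Chi3l1 ko, and 19.1, 19.8, 19.1 and 19.3 FPKM in WT. It fell by 0.87 in log2(FPKM + 1) without overlap (SE 0.12, adjusted p = 0.0019, limma), and without each library in turn. Il4ra, the chain shared by IL-4 and IL-13, rose by 0.62 (SE 0.14, adjusted p = 0.0186, limma), with 20.5, 23.8, 15.1 and 15.8 FPKM in Stat3 ko against 9.87 to 13.5 FPKM in WT. It missed the threshold without WT library 1 (0.0591) or 4 (0.0581).

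For STAT4, Il12rb1, a chain of the IL-12 and IL-23 receptors, had 2.31, 2.55, 5.73 and 2.71 FPKM in Stat3 ko, 1.33, 1.23, 1.44 and 1.08 FPKM in Chi3l1 ko, and 0.736, 1.69, 0.552 and 0.789 FPKM in WT. Stat3 ko did not overlap with either other group (1.12 ± 0.23 over WT, adjusted p = 0.0129, limma, called without each library in turn), and the highest value was in Stat3 ko library 3. Il12rb2, its partner, was too low to test.

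The 4 Janus kinases gave 0 calls and 0 at an unadjusted p under 0.05 for Stat3 ko over WT, with a median of -0.02. Jak1 had 33.0, 50, 42.7 and 32.4 FPKM in Stat3 ko against 35.1 to 42.0 FPKM in WT, and Jak2, the kinase of the prolactin receptor, had 17.5 to 23.7 FPKM in Stat3 ko against 16.7 to 21.5 FPKM in WT. Among inhibitors 1 of 8 genes of the SOCS family passed, Socs5, which fell by 0.32 (adjusted p = 0.0384, limma) and missed the threshold without any of 8 libraries. Socs3, the feedback inhibitor that STAT3 induces and whose promoter is shown above, did not pass (-0.14 ± 0.24, adjusted p = 0.708, limma), with 6.12, 14.1, 9.0 and 8.24 FPKM in Stat3 ko, 9.85, 15.4, 12.1 and 6.96 FPKM in Chi3l1 ko, and 9.72, 8.72, 11.8 and 10.1 FPKM in WT. The Stat3 ko libraries lay on both sides of WT. Cish, the STAT5 feedback gene with TTCCTGGAA and TTCTTGGAA at its start, did not pass either (0.08 ± 0.17, adjusted p = 0.773, limma). Of the 4 PIAS genes, which encode SUMO ligases that restrain STATs, limma called 0, with 1 at an unadjusted p under 0.05, and the most abundant, Pias2 and Pias4, differed by -0.14 and 0.08.

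Ptpn2, the phosphatase that removes activating phosphates from JAK and STAT proteins in the nucleus, was the only one of 4 phosphatases to pass. It had 7.29, 12.5, 13.7 and 11.1 FPKM in Stat3 ko, 24.5, 22.3, 24.7 and 22.6 FPKM in Chi3l1 ko, and 23.1, 20.9, 22.1 and 21.5 FPKM in WT. The Stat3 ko libraries lay below all others, and the fall of 0.94 (SE 0.15, adjusted p = 0.0037, limma) held without each library in turn. Ptpn11, or SHP2, which carries signals from receptors to RAS, did not pass (0.09 ± 0.12, adjusted p = 0.632, limma), nor did Ptpn1, which acts on JAK2 (-0.07 ± 0.10, 0.612).

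**Figure D5:**
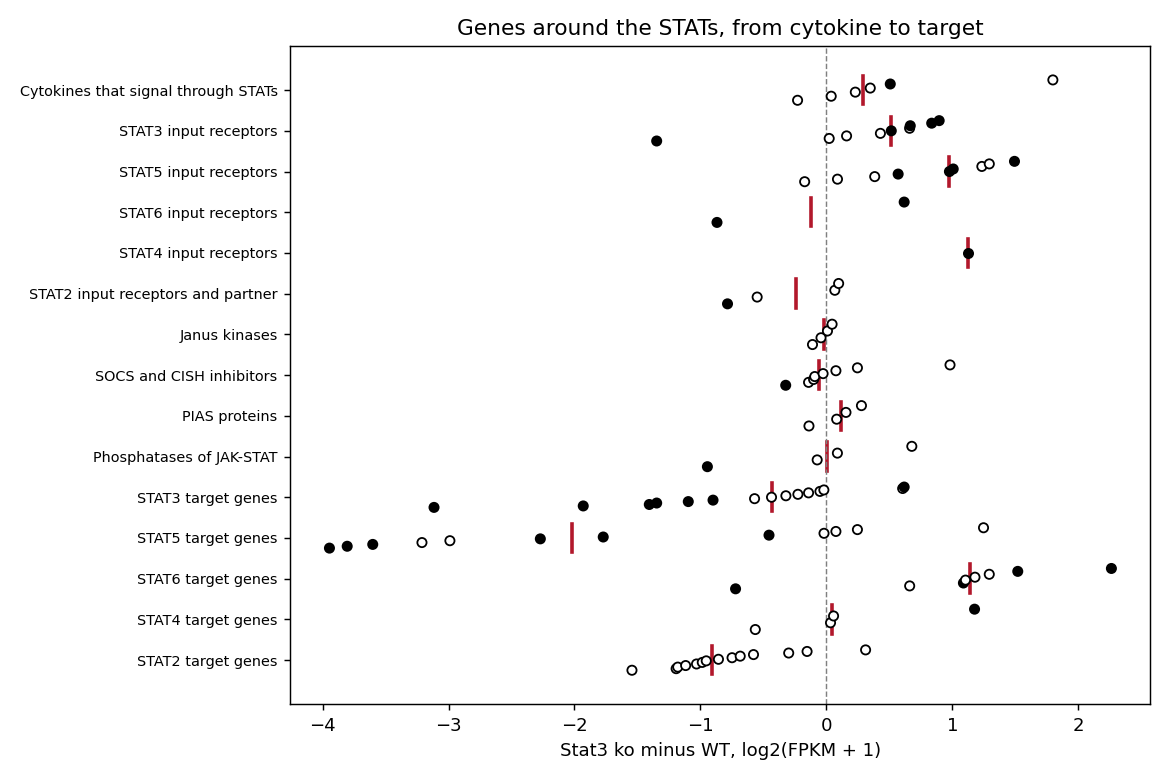
Each row is a list of genes around the STATs and each point a tested gene, placed by its difference in log2(FPKM + 1) for Stat3 ko minus WT, filled where the adjusted p is under 0.05, with a red bar at the median of the list. STAT5 targets reach from -3.95 to 1.25, and the 4 Janus kinases lie between -0.11 and 0.04.

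Among 15 STAT3 targets 6 fell and 1 rose, beside 8.39% and 5.61% of all genes. The median was -0.44, or -0.22 without Stat3 ko library 1. Lcn2, an iron-binding acute phase protein, had 77.2, 147, 173 and 282 FPKM in Stat3 ko, 1321, 1033, 1544 and 1209 FPKM in Chi3l1 ko, and 1410, 1417, 1244 and 1285 FPKM in WT (-3.12 ± 0.31, adjusted p = 0.00019, limma). Lrg1, a secreted acute phase glycoprotein, had 103, 65.1, 70.2 and 77.4 FPKM in Stat3 ko, 215, 212, 215 and 246 FPKM in Chi3l1 ko, and 219, 186, 247 and 184 FPKM in WT (-1.41 ± 0.15, 0.000262). Both lay lower in every Stat3 ko library than in any other. Fos, an AP-1 subunit, fell by 1.93 (adjusted p = 6.61e-05, limma), with 6.92 to 11.7 FPKM in Stat3 ko, 24.1 to 31.0 FPKM in Chi3l1 ko and 32.7 to 42.7 FPKM in WT. Cebpd and Bcl3, transcriptional regulators chosen after their values were seen to complete the falls beside Osmr, differed by -1.10 and -0.90 (adjusted p = 0.0012 and 0.0230, limma), and Il4ra was the 1 that rose. The call of Bcl3 was lost without WT library 1 (0.0711), 3 (0.0589) or 4 (0.0671).

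The STAT5 targets moved furthest, although neither Stat5a nor Stat5b passed. Of 12, 6 fell and 0 rose, beside 8.39% and 5.61% of all genes. The median was -2.02, against -0.02 over all genes. Wap, whey acidic protein, had 1.67, 4.94, 3.54 and 3.31 FPKM in Stat3 ko, 82.3, 82.2, 46.4 and 74.0 FPKM in Chi3l1 ko, and 67.3, 107, 62.1 and 36.6 FPKM in WT (-3.95 ± 0.33, adjusted p = 6.61e-05, limma). Lalba, alpha-lactalbumin of lactose synthesis, had 79.1, 134, 80.7 and 101 FPKM in Stat3 ko, 1487, 911, 1463 and 1214 FPKM in Chi3l1 ko, and 1135, 998, 1325 and 1296 FPKM in WT (-3.60 ± 0.20, 5.6e-06). Neither gene overlapped between Stat3 ko and the other groups. Elf5, the transcription factor of the secretory alveolar lineage, had 17.6, 20.2, 33.6 and 40.1 FPKM in Stat3 ko, 95.2, 69.3, 91.2 and 98.8 FPKM in Chi3l1 ko, and 103, 91.3, 93.2 and 83.3 FPKM in WT (-1.77 ± 0.23, adjusted p = 0.0012, limma). Csn3, kappa casein, fell by 2.27 (0.0061). Csn1s1, alpha-S1 casein, fell by 3.80 (0.0198) and Akt1, a survival kinase, fell by 0.46 (0.0269), both named after their values were seen. Calls of Csn1s1 and Akt1 were lost without WT library 1 (0.0510 and 0.0651) or WT library 3 (0.0514 and 0.0532), and that of Akt1 also without Stat3 ko library 2 (0.0653) or WT library 2 (0.0564) or 4 (0.0781). Luminal markers gave 7 of 7 negative differences, 0 called, 4 at an unadjusted p under 0.05 and a median of -0.76, or -0.41 without Stat3 ko library 1. Their sums in Stat3 ko libraries 3 and 4, 2503 and 2774 FPKM, lay within the WT range. By gene, Krt8, Krt18 and Cdh1 lay within it in both libraries, and Krt19 and Cldn7 below it in both. Epcam and Cldn3 lay below it in library 3 only. Cldn7, a tight junction protein, had 93.1 and 111 FPKM in libraries 3 and 4, against 122 to 141 FPKM in WT. These genes were named after their values were seen. With the luminal marker level as a covariate, the calls over all genes for Stat3 ko over WT went from 1911 to 307. That level also ran lower in Stat3 ko, so the parts of luminal cells and of genotype in these falls cannot be told apart. Cish and Socs2, STAT5 targets that are feedback inhibitors, named after their values were seen, differed by 0.08 and 0.25 and did not pass.

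Of the STAT6 targets 3 rose and 1 fell among 8 tested, beside 5.61% and 8.39% of all genes, with a median of 1.14. Those that rose are genes of macrophages and dendritic cells. Ccl22, a chemokine for T cells with CCR4, had 3.46, 33.4, 22.6 and 8.13 FPKM in Stat3 ko, 2.46, 2.45, 1.90 and 1.69 FPKM in Chi3l1 ko, and 1.47, 2.35, 2.06 and 1.46 FPKM in WT (2.26 ± 0.50, adjusted p = 0.0174, limma). Stat3 ko did not overlap with either other group, and its libraries 2 and 3 stood highest. Mgl2, a macrophage lectin, had 21.2, 7.24, 6.64 and 15.6 FPKM in Stat3 ko against 1.95 to 5.02 FPKM in WT (1.52 ± 0.40, 0.0307), with libraries 1 and 4 highest. Mrc1, the mannose receptor, rose by 1.09 (0.0473), and Gata3, which in this tissue is a luminal transcription factor, fell by 0.72 (0.0390). These 4 calls were lost without WT library 1 (0.0579, 0.0962, 0.119 and 0.110) or WT library 4 (0.0513, 0.0772, 0.125 and 0.0931), and those of Mgl2, Mrc1 and Gata3 also without Stat3 ko library 1 (0.0565, 0.0918 and 0.0632). Leaving out any of 4 libraries ended the call of Mgl2, any of 9 that of Mrc1 and any of 10 that of Gata3. Retnla, a secreted product of alternatively activated macrophages, did not pass (1.29 ± 0.59, adjusted p = 0.147, limma). Arg1, the arginase of such macrophages, was higher in Stat3 ko than in Chi3l1 ko by 1.30 (adjusted p = 0.0467, limma), a call lost without any of 11 libraries, and differed from WT by 1.10 (0.0730). Macrophage markers summed to 813 to 1258 FPKM in Stat3 ko, 422 to 505 FPKM in Chi3l1 ko and 330 to 656 FPKM in WT. Most of that was Lyz2, with 717 to 1107 FPKM in Stat3 ko and 269 to 567 FPKM in WT. All 5 macrophage markers had positive differences from WT and 4 were called by limma, beside 5.61% of all genes called higher. Adgre1 overlapped, at 9.42 to 22.9 FPKM in Stat3 ko against 8.10 to 12.1 FPKM in WT. Lyz2 and Adgre1 were named after their values were seen, and Mrc1 stands on both lists. Dendritic cell markers summed to 16.8, 67.0, 47.8 and 19.8 FPKM in Stat3 ko, against 11.4 to 15.4 FPKM in Chi3l1 ko and 10.9 to 18.3 FPKM in WT. Ccr7, named after its values were seen, gave 50.1 and 31.9 FPKM of the sums in Stat3 ko libraries 2 and 3. These 2 libraries also had the highest T cell and B cell sums. Itgax, also named after its values were seen, overlapped, at 4.71, 6.37, 8.74 and 11.2 FPKM in Stat3 ko against 5.69 to 10.8 FPKM in WT. Of 4 tested dendritic cell markers, 3 had positive differences from WT and 2 were called by limma, beside 5.61% of all genes called higher. The part of macrophages and dendritic cells in the STAT6 list was not tested.

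Of the STAT4 targets 4 of 7 could be tested and 1 rose. Prf1, perforin of cytotoxic lymphocytes, had 2.93, 5.34, 4.39 and 1.5 FPKM in Stat3 ko, 0.825, 1.49, 1.90 and 0.889 FPKM in Chi3l1 ko, and 0.693, 1.75, 0.428 and 0.930 FPKM in WT (1.18 ± 0.30, adjusted p = 0.0275, limma). Library 4 of Stat3 ko overlapped with the other groups, and libraries 2 and 3, the pair high in Stat4 and in T cell markers, were the highest of the 12. The call was lost without Stat3 ko library 2 (0.0683) or WT library 1 (0.0830), 3 (0.0720) or 4 (0.0668). Gzmb, the granzyme of the same cells, did not pass against WT (0.06 ± 0.18, adjusted p = 0.845, limma), and was higher in Stat3 ko than in Chi3l1 ko by 0.65 (0.0389), a call lost without any of 7 libraries. Il18r1, the IL-18 receptor, differed from WT by -0.56 ± 0.21 (0.0901). T cell markers also ran higher in Stat3 ko, so the parts of T cell number and of genotype in these values cannot be told apart.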

How the data were processed

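RNA of 12 libraries was measured, 4 per genotype, grouped by the genotype label. Per the submitters' processing notes the builds were GRCm38 and mm10, and the tools were HTSeq, STAR, Trimmomatic, limma and edgeR, with no roles given. The authors deposited FPKM per gene for all libraries, and, in 2 comparison tables limited to genes at an unadjusted p under 0.05, read counts, log2 fold changes and p-values. FPKM times gene length, multiplied by 1 depth factor per library taken from the deposited counts, gave whole reads for 100% of values (within 0.01 read), and 0 of 55832 deposited counts differed from them. Totals ran from 16217143 to 22607123 counts, which limits the precision of Stat4 most. Gene names turned into dates, 27 in all, were restored by identifier.

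In R 4.3.3, log2(FPKM + 1) of all 12 libraries was tested two-sided with limma 3.58.1 and its trend option, over genes that reached 1 FPKM in 4 or more libraries. Fold changes are therefore on the log2(FPKM + 1) scale, which understates changes of low genes. Exact permutation tests used the 4 against 4 values. Alternatives were median-of-ratios and quantile scaling, no filter, a filter at a mean of 5 FPKM, a pseudocount of 0.1, array weights, only the compared groups, leaving out each library or those over 2% mitochondrial counts, marker levels as covariates, and edgeR 4.0.16 and DESeq2 1.42.0 on recovered reads. The exact test per member, the edgeR fits of Stat4 without each library or with the T cell level, and leaving out libraries for lists and neighbours were added after seeing the data. Leaving out the libraries over 2% mitochondrial counts dropped Stat3 ko libraries 1 and 2 and Chi3l1 ko library 2. Scripts were tested on simulated data.

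The members, lists, markers and tests were chosen with earlier results of these data known. Named were the 6 members, the targeted Chil1, per list up to 4 genes called in a comparison and the 2 most abundant in WT, the 3 genes most like each member, and the called and nearest genes around Stat3; others are marked. Python 3.11.15, pandas 2.3.3, numpy 2.4.6, scipy 1.17.1 and matplotlib 3.10.9 were used.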

Additional observations from a re-analysis of the deposited data

How the results depend on the processing

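Stat3 kept its direction and its call in Stat3 ko under all 26 alternatives, at -1.65 to -1.46 against WT and -1.71 to -1.51 against Chi3l1 ko with each library left out, except that the exact test adjusted over 18 gave 0.103. The members called were 1 for Stat3 ko over WT, but 2 by DESeq2 and 0 by the exact test, and 1 for Stat3 ko over Chi3l1 ko, but 2 by edgeR, DESeq2 and edgeR without a filter and 0 by the exact test; the added one was Stat4. The exact test adjusted over 18 did not call Stat3 either, so its 0 calls decide nothing about the other members. No paired analysis was possible because replicate numbers were given in accession order. Directions that turned were all of differences that did not pass. Stat2 against WT became 0.074 without the libraries over 2% mitochondrial counts, 0.26 with the adipocyte and 0.16 with the luminal level, and against Chi3l1 ko 0.10 and 0.078 with these levels. Stat5a became 0.12 against WT and 0.052 against Chi3l1 ko with the T cell level. Stat5b against WT became -0.0004 with median-of-ratios scaling, -0.0032 without the libraries over 2%, -0.018 with array weights and -0.027 with the T cell level, and against Chi3l1 ko 0.056 with the adipocyte level. Stat6 in Chi3l1 ko over WT became 0.0099 with array weights, 0.0203 without the libraries over 2% and 0.0007 by edgeR. Stat4 by edgeR became -0.14 against WT with the T cell level. With each library left out, Stat5b ran from -0.057 to 0.067 against WT and -0.10 to 0.022 against Chi3l1 ko, and in Chi3l1 ko over WT Stat2 ran from -0.080 to 0.11, Stat5a from -0.034 to 0.10, Stat6 from -0.0198 to 0.0203 and the Stat5a to Stat5b ratio from -0.064 to 0.047. Listed genes called ran from 14 to 42 for Stat3 ko over WT and 16 to 38 for Stat3 ko over Chi3l1 ko, and neighbours of Stat3 from 1 to 6, with 2 without a filter. All genes called for Stat3 ko over WT, 1911 (766 higher, 1145 lower), became 530 with only those groups, 1149 without a filter, 2955 by edgeR (1644 higher, 1311 lower), 4392 by DESeq2 (2702 higher, 1690 lower), 189 with the T cell, 142 with the adipocyte and 307 with the luminal level, and 569 to 3218 with each library left out. The cause was not tested.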
